A study of Danio rerio with 6 samples.

Results

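The genes described here are 9 known targets of the transcription factor p53, matched by symbol: mdm2, cdkn1a, ccng1, sesn1, phlda3, bbc3, baxa, fas and casp8. They were chosen with earlier results of these data known. Each symbol led to exactly 1 of the 32520 gene IDs in the count tables, and baxa was matched as BAX once its final letter was dropped. The p53 protein is held at a low level by Mdm2, which marks it for destruction. When DNA is damaged or ribosome assembly or splicing fails, p53 escapes Mdm2, accumulates and switches on genes that stop the cell cycle, repair DNA or kill the cell. Because mdm2 is itself a target, its transcript is commonly read as a gauge of p53 activity, and in zebrafish embryos mdm2, cdkn1a and ccng1 are widely used in this way.

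The messenger RNA of whole larvae of the zebrafish was sequenced 5 days after fertilisation, from pdcd7/cx20 mutants (line pd1215) and from wild-type siblings (3 libraries of each). Pdcd7 belongs to the U11 part of the minor spliceosome, the machine for splicing of U12-type introns. The larvae received no drug or stress treatment that the labels name, the labels do not say what cx20 stands for or what pd1215 does to the protein, and all 6 libraries are listed as batch 1. Larvae were pooled, with 40 larvae and 3 replicates stated and no word on whether 40 is the number per replicate or whether replicates came from separate clutches, so p-values measure the spread between these libraries, which may be technical.

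Library totals ran from 75122088 to 87110177 counts. The transcript of pdcd7 itself was higher in the mutants (20.6 ± 1.06 against 15.0 ± 0.227 CPM, mean ± SD, n = 3), which does not show the lesion. CPM is a count divided by the scaled library size, in units of 1e+06 counts. Markers of muscle, neurons, photoreceptors, liver, gut, exocrine pancreas, epidermis, blood and leukocytes were all detected in both groups and lens markers fell to a summed 8.41 to 24.5 CPM in mutants from 360.0 to 607.0 in siblings. In such bulk samples, fewer cells of a type and less RNA per cell cannot be told apart.

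Of the 9 genes, 6 rose in the mutants (phlda3, cdkn1a, ccng1, mdm2, baxa and casp8), 2 fell (sesn1 and bbc3) and fas did not pass the test. The calls are those of edgeR's quasi-likelihood test with Benjamini-Hochberg adjustment over all 24248 tested genes at a threshold of 0.05. They must be read against a transcriptome in which 68.6% of tested genes were called, 34.5% higher and 34.1% lower. The groups did not overlap for the same 8 called genes, and higher or lower separation without overlap was seen in 36.4% and 35.8% of tested genes. By size, 4 of the 9 rose by at least 1.5-fold, as did 10.7% of all tested genes, and 2 rose by at least 2-fold, as did 3.34%. The median log2 change of the 9 was 0.48, beside 0.01 over all tested genes.

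**Figure D1:**
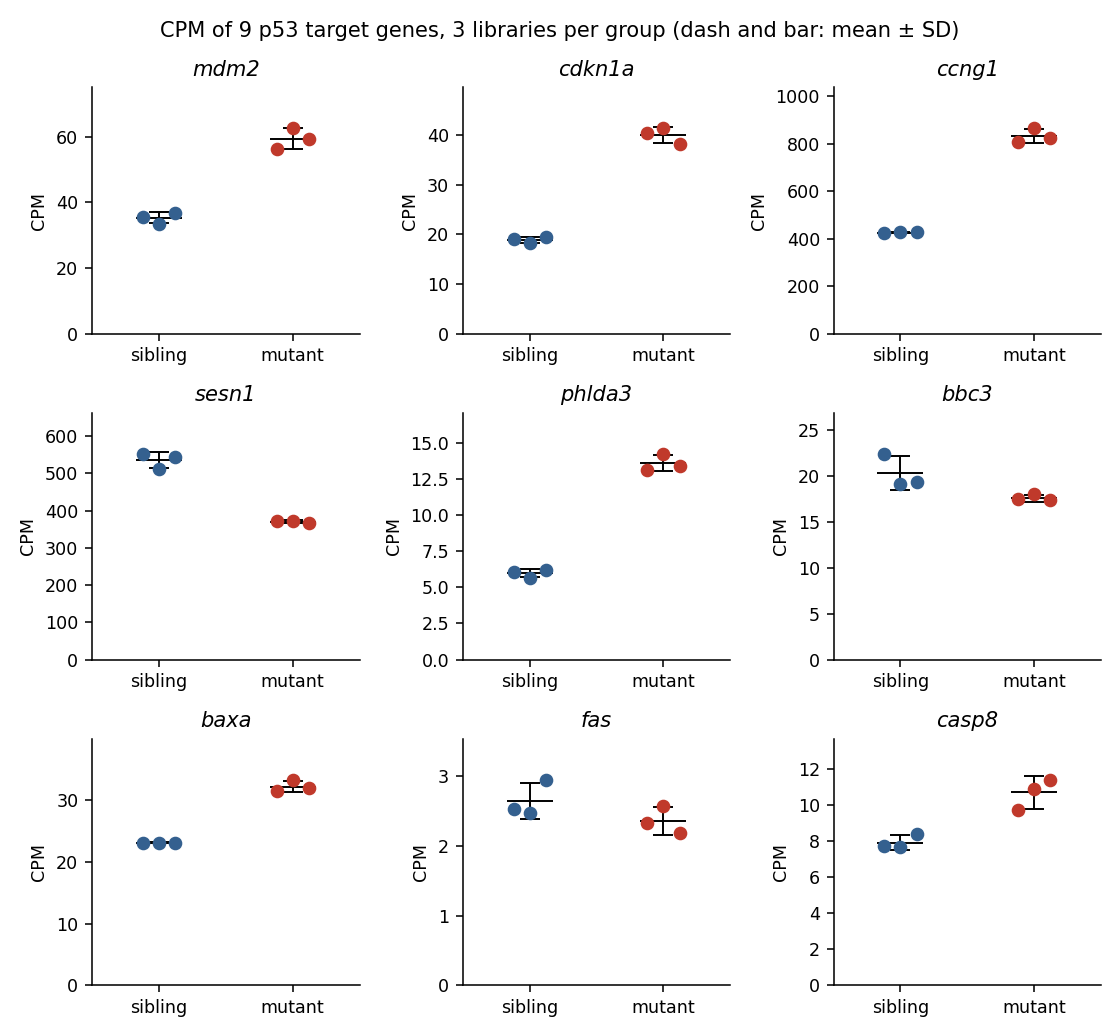
CPM (vertical axis, from 0) of each of the 9 genes in the 3 sibling libraries (blue) and 3 mutant libraries (red), with the mean and SD of each group as a dash and bar. The groups stand apart for 8 genes, 6 higher and 2 lower in mutants, and overlap for fas.

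The regulator comes first. Mdm2 is the ubiquitin ligase that limits p53, and its gene (ENSDARG00000033443, GRCz11 chromosome 4, 23125689 to 23136195, plus strand) stood at 56.1, 62.5 and 59.2 CPM in mutant replicates 1 to 3 and at 35.6, 33.5 and 36.8 CPM in sibling replicates 1 to 3. All 3 mutant libraries lay above all 3 siblings. The rise was 1.68-fold (log2 0.75 ± 0.05 SE, adjusted p = 2.26e-08 in edgeR). It was also larger than 1.5-fold in a test against that size (adjusted p = 3.70e-03 in edgeR), a test chosen after seeing the data, which called 5.78% of all tested genes higher and 7.37% lower. It called phlda3, cdkn1a and ccng1 higher as well and none of the other members in either direction.

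Both genes of cell cycle control rose. The gene cdkn1a (ENSDARG00000076554, chromosome 22, 603382 to 607812, minus strand) encodes p21, the inhibitor of cyclin-dependent kinases through which p53 halts cells in G1. It measured 40.4, 41.3 and 38.1 CPM in mutants and 19.0, 18.3 and 19.5 CPM in siblings. The lowest mutant library thus lay far above the highest sibling, and the rise was 2.11-fold (log2 1.08 ± 0.04 SE, adjusted p = 3.05e-10 in edgeR). Cyclin G1, encoded by ccng1 (ENSDARG00000076667, chromosome 14, 22129096 to 22140213, plus strand), brings a phosphatase to Mdm2 in mammalian cells. Its level was 807, 865 and 824 CPM in mutants and 424, 427 and 427 CPM in siblings. The siblings were nearly equal and every mutant library was far above them, a rise of 1.95-fold (log2 0.96 ± 0.03 SE, adjusted p = 1.54e-10 in edgeR).

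The largest rise among the 9 was that of phlda3 (ENSDARG00000037804, chromosome 23, 5756442 to 5759242, minus strand). Its protein is little more than a lipid-binding pleckstrin homology domain, which in mammalian cells competes with the kinase Akt for the membrane and so dampens survival signals. The gene measured 13.1, 14.2 and 13.4 CPM in mutants and 6.08, 5.64 and 6.20 CPM in siblings, with no overlap. It rose 2.27-fold (log2 1.18 ± 0.06 SE, adjusted p = 3.25e-09 in edgeR), which placed it above 97.7% of all tested genes by log2 change.

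The stress gene sesn1 went the other way. Sestrin 1 restrains the TOR complex when amino acids are short and is a p53 target in mammals (ENSDARG00000020693, chromosome 20, 32152355 to 32231157, plus strand). It measured 373, 371 and 366 CPM in mutants and 552, 511 and 544 CPM in siblings. Every mutant library was below every sibling, 1.45-fold on average (log2 -0.53 ± 0.03 SE, adjusted p = 4.12e-08 in edgeR). Some of its exons overlap those of ARMC2 on the opposite strand, and reads of the 2 genes were told apart by strand in the counting.

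The genes of the mitochondrial death pathway did not move as a block. Bax, which perforates the outer mitochondrial membrane, is encoded by baxa (ENSDARG00000020623, chromosome 3, 37776489 to 37785873, minus strand), with 31.5, 33.3 and 32.0 CPM in mutants and 23.0, 23.1 and 23.1 CPM in siblings. The groups were apart and the rise was 1.40-fold (log2 0.48 ± 0.03 SE, adjusted p = 8.81e-08 in edgeR). Puma, the BH3-only protein that sets Bax free and a main killer downstream of p53, is encoded by bbc3 (ENSDARG00000069282, chromosome 15, 23745217 to 23761580, minus strand). It measured 17.5, 18.1 and 17.4 CPM in mutants and 22.4, 19.1 and 19.4 CPM in siblings. The groups did not overlap, but sibling replicate 1 stood above the other siblings and the mean fall was small (log2 -0.20 ± 0.06 SE, adjusted p = 0.00719 in edgeR). Without that library the log2 change of bbc3 was -0.13 (adjusted p = 0.0225 in edgeR), and with libraries scaled by total size alone it was -0.13 and not called (adjusted p = 0.0551).

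Of the genes of the death receptor route, the receptor did not pass and the caspase rose. The gene fas (ENSDARG00000043586, chromosome 17, 23619924 to 23631411, minus strand) encodes the receptor that p53 raises in mammalian cells to make them sensitive to Fas ligand. It was the rarest of the 9 in CPM, with 181 to 211 counts in the mutant libraries and 185 to 233 in the siblings. Its level was 2.33, 2.57 and 2.18 CPM in mutants and 2.53, 2.47 and 2.95 CPM in siblings, and the groups overlapped. The log2 change was -0.17 with a 95% interval of -0.39 to 0.06 (adjusted p = 0.163 in edgeR), so a rise as large as that of casp8 lies outside the interval. The gene casp8 (ENSDARG00000058325, chromosome 6, 13045885 to 13058979, plus strand) encodes the caspase that such receptors activate. It measured 9.70, 10.9 and 11.4 CPM in mutants and 7.73, 7.65 and 8.39 CPM in siblings. All mutant libraries were higher, by 1.35-fold on average (log2 0.43 ± 0.07 SE, adjusted p = 1.20e-04 in edgeR).

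Per exon length the 9 genes spanned a wide range of levels. In siblings the order in CPM per kb of exon was ccng1 (176 ± 0.581), sesn1 (107 ± 4.39), cdkn1a (15.5 ± 0.462), baxa (11.2 ± 0.0221), mdm2 (9.06 ± 0.437), bbc3 (5.34 ± 0.484), phlda3 (4.02 ± 0.198), fas (1.92 ± 0.187) and casp8 (1.85 ± 0.0946), each as mean ± SD over n = 3. Of neighbours in that order, fas and casp8 alone overlapped. In mutants phlda3 (9.13 ± 0.371) stood above bbc3 (4.63 ± 0.102), so this pair changed places, and casp8 (2.50 ± 0.210) stood above fas (1.71 ± 0.144) without overlap. In mutants the levels of baxa (15.6 ± 0.453) and mdm2 (15.2 ± 0.824) overlapped, which they did not in siblings. The summed CPM of the 9 genes was 1350 to 1420 in mutants and 1050 to 1090 in siblings, and ccng1 and sesn1, which moved in opposite directions, made up most of it.

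**Figure D2:**
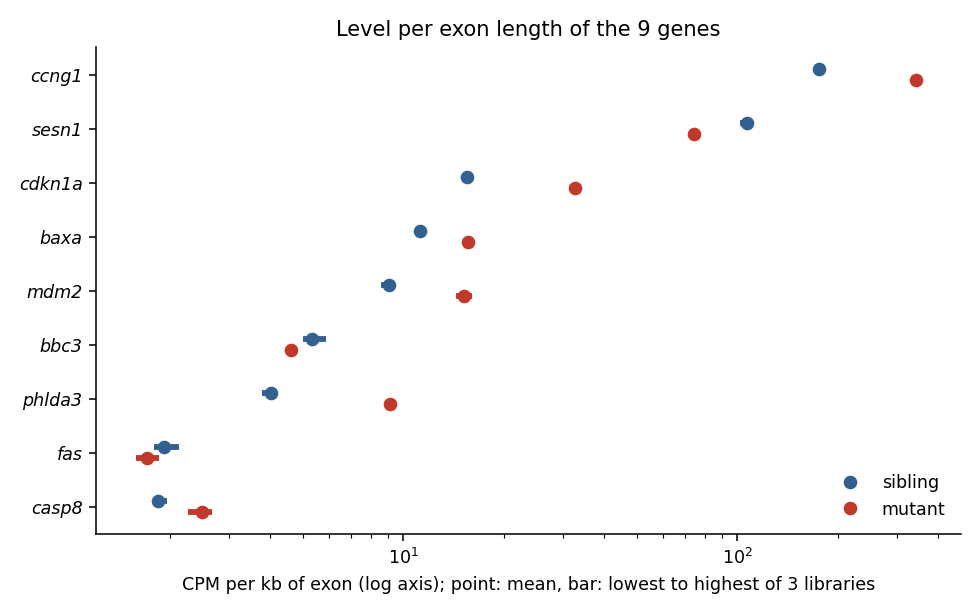
Level of each gene in CPM per kb of exon (log axis), with the mean as a point and the lowest to highest of 3 libraries as a bar, siblings in blue and mutants in red. The genes run from about 2 for fas and casp8 to 176 for ccng1 in siblings, and phlda3 passes bbc3 in mutants.

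**Figure D3:**
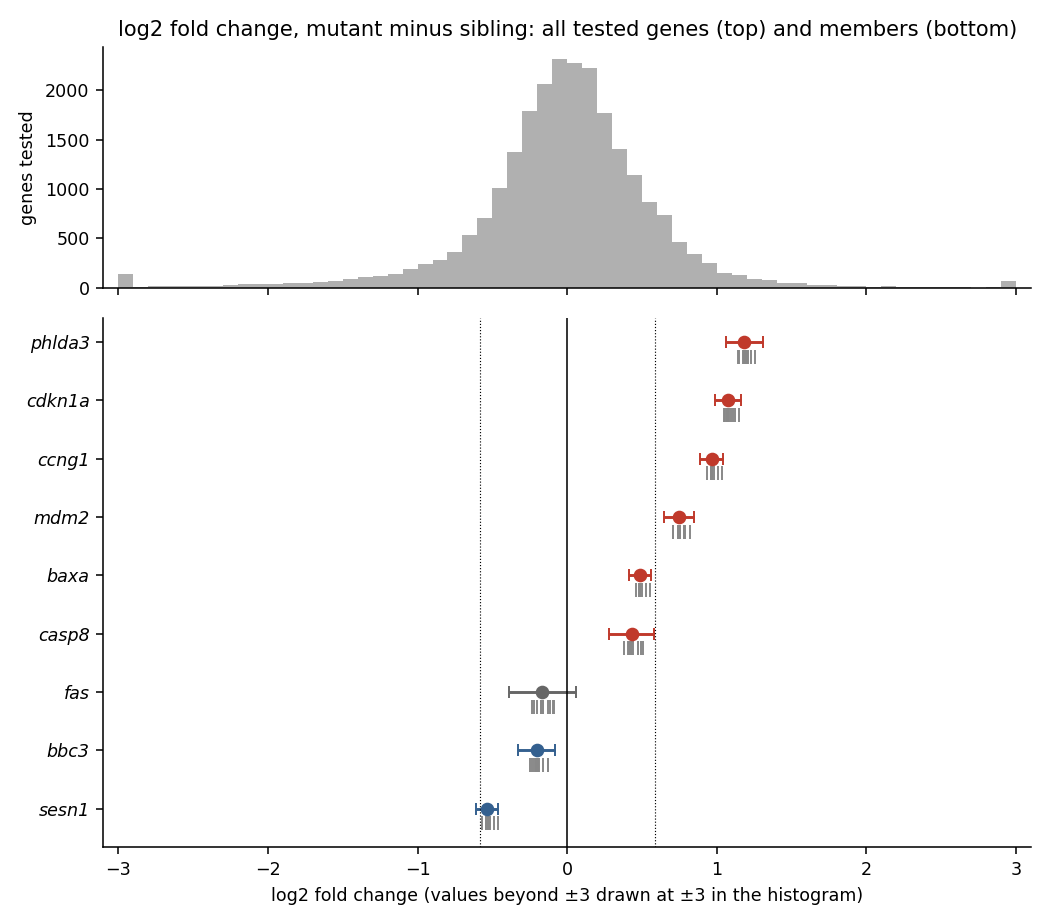
Log2 fold change, mutant minus sibling, of all 24248 tested genes as a histogram (top) and of the 9 genes as points with 95% intervals (bottom; red called higher, blue lower, grey not called), with grey ticks for each alternative processing and dotted lines at 1.5-fold. The rises of phlda3, cdkn1a, ccng1 and mdm2 lie beyond 1.5-fold with their whole interval, and those of baxa and casp8 do not.

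Of 13 measured relatives of the 9 genes, 4 rose, 5 fell and 4 did not pass, and the median of their log2 changes was 0.01. These are 30.8% higher and 38.5% lower, near the 34.5% and 34.1% of all tested genes. At an adjusted p under 0.01 the number that fell was 3, without sesn4 (adjusted p = 0.0153 in edgeR) and cdkn1cb (adjusted p = 0.0114 in edgeR). Among the sestrins, the stress-induced sesn2 rose (8.25 against 5.17 CPM, log2 0.67 ± 0.06 SE, adjusted p = 1.51e-06 in edgeR), while sesn3 (log2 -0.31 ± 0.03 SE) and sesn4 (log2 -0.14 ± 0.05 SE) fell with sesn1. Cyclin G2, encoded by CCNG2 and in mammals a FoxO target, fell (39.8 against 58.9 CPM, log2 -0.57 ± 0.04 SE, adjusted p = 4.72e-08 in edgeR), opposite to ccng1. PHLDA2, a relative of phlda3, rose (26.7 against 13.9 CPM, log2 0.94 ± 0.05 SE), and phlda1 measured 4.73 against 4.68 CPM. The second Bax gene baxb (4.27 against 3.93 CPM, adjusted p = 0.203) and casp10 (2.72 against 2.4 CPM, adjusted p = 0.151) did not pass in edgeR. The p27 genes, both listed as CDKN1B, moved apart, with ENSDARG00000029018 at log2 0.45 ± 0.04 SE and ENSDARG00000054271 at -0.24 ± 0.04 SE. The p57 genes did likewise, with cdkn1ca at log2 0.28 ± 0.05 SE and cdkn1cb, at 2.18 against 2.72 CPM, at -0.32 ± 0.10 SE. The gene mdm4, which encodes the partner of Mdm2, measured 78.3 against 80.5 CPM (log2 -0.04 ± 0.03 SE, adjusted p = 0.223 in edgeR), so its transcript did not pass where that of mdm2 rose.

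Of 24 measured genes that control p53, 10 rose, 7 fell and 7 did not pass, and the median log2 change was 0.04. These are 41.7% higher and 29.2% lower, beside 34.5% and 34.1% of all tested genes. The kinases of the DNA damage checkpoint were those of the list that rose furthest. The number that fell was 4 without mutant replicate 3 and 4 without sibling replicate 3. CHEK1, the kinase that restrains entry into mitosis when replication stalls, rose from 3.52 to 7.83 CPM (log2 1.15 ± 0.07 SE, adjusted p = 3.52e-08 in edgeR). The related chek2 rose by log2 1.04 ± 0.07 SE, and ATR and ATM, which activate them, by 0.73 ± 0.04 and 0.47 ± 0.04. The acetyltransferase genes CREBBP (ENSDARG00000104609) and EP300 (ENSDARG00000061108), coactivators of p53, fell (log2 -0.33 ± 0.04 SE and -0.25 ± 0.03 SE). The other CREBBP entry (ENSDARG00000112452) also fell (log2 -0.24 ± 0.04 SE). The other EP300 entry (ENSDARG00000100666) measured 76.6 against 76.4 CPM and did not pass.

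Genes of a broader list, linked to p53 in mammals or fish, moved in both directions. The list is mixed, since it also holds CCNG2, given above as a FoxO target, and several gene IDs for some entries. Control of these genes by p53 was not tested. Of 51 measured, 21 rose, 20 fell and 10 did not pass, and the median log2 change was -0.02. These are 41.2% higher and 39.2% lower, beside the 34.5% and 34.1% of all tested genes. The gene rps27l, a ribosomal protein relative induced by p53 in human cells, rose 2.26-fold (60.5 against 26.8 CPM, log2 1.18 ± 0.04 SE, adjusted p = 1.54e-10 in edgeR). GADD45A (ENSDARG00000043581), a growth arrest gene, rose by log2 0.98 ± 0.06 SE (14.1 against 7.16 CPM). The other GADD45A entry (ENSDARG00000104571) was more abundant, at 36.3 against 30.8 CPM, and rose less (log2 0.24 ± 0.04 SE). Against these, foxo3a, a transcription factor gene of fasting and stress, fell from 215 to 142 CPM (log2 -0.60 ± 0.03 SE, adjusted p = 6.03e-09 in edgeR) and the repressor gene BCL6 by log2 -0.62 ± 0.04 SE. Chosen after their values were seen, pmaip1, which encodes the BH3-only protein Noxa, was at log2 -0.59 ± 0.07 SE, and dram1, a lysosomal gene of p53-driven autophagy, at -1.45 ± 0.11 SE.

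**Figure D4:**
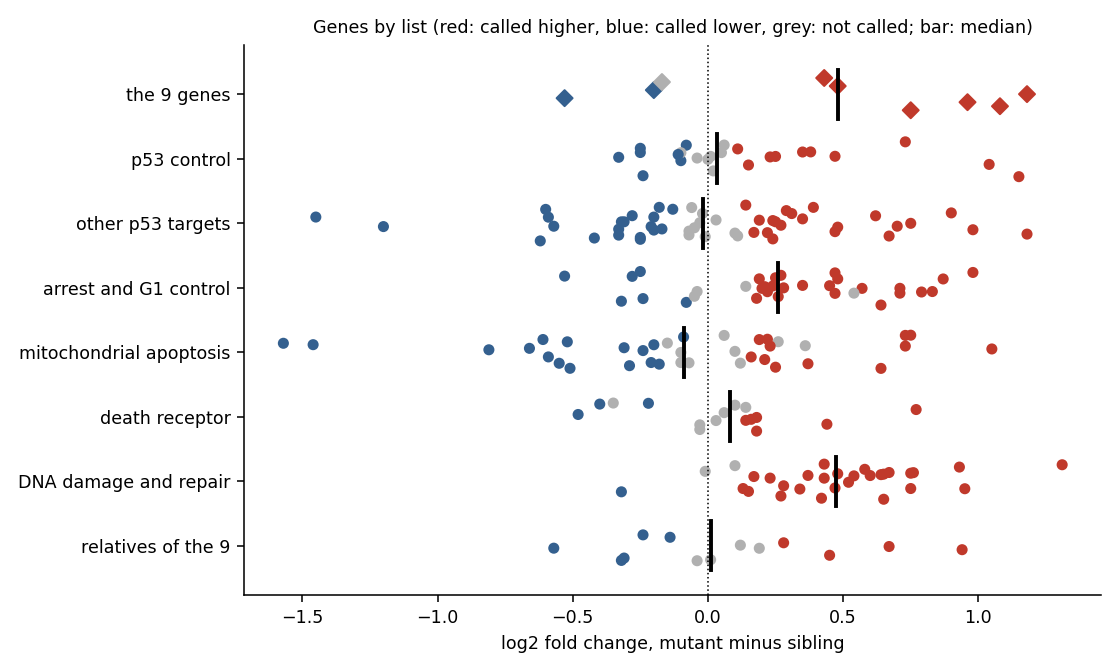
Log2 fold change, mutant minus sibling (horizontal axis), of every tested gene on each list, in red where called higher, blue where called lower and grey where not called, with a bar at the list's median. Medians are 0.48 for the 9 genes, 0.47 for DNA damage and repair, 0.26 for arrest and G1 control and -0.02 for other p53 targets.

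In the arrest and G1 list, which beside inhibitors holds the cyclins and kinases they act on, 23 of 33 rose, 6 fell and the median log2 change was 0.26. These are 69.7% higher and 18.2% lower, beside 34.5% and 34.1% of all tested genes. The lists share genes, so their counts are not of separate sets. BTG2 and GADD45A, for example, are also on the list of other p53 targets. CCND1, a G1 cyclin gene, rose by log2 0.79 ± 0.03 SE, CCND2 (ENSDARG00000051748) by 0.83 ± 0.05 and RB1, the brake that those cyclins release, by 0.71 ± 0.04. CCND2 has 2 entries, of which the other is not reported here. The antiproliferative genes BTG1 and BTG2, of which the latter is a p53 target, fell (log2 -0.53 ± 0.03 SE and -0.28 ± 0.04 SE). Of 30 genes of the DNA damage response and repair, 27 rose (90.0%, beside 34.5% of all tested genes) and 1 fell, DDB2 (log2 -0.32 ± 0.04 SE), and the median log2 change was 0.47. The mismatch repair gene MSH6 rose by log2 0.75 ± 0.04 SE, RPA1, which coats single-stranded DNA, by 0.60 ± 0.03 and FANCD2, of cross-link repair, by 0.65 ± 0.04. DDB2, a sensor of ultraviolet damage, is a p53 target in human cells. Markers of dividing cells rose too, 15 of 16 (93.8%, beside 34.5% of all tested genes), with a median log2 change of 0.58. The part of cell division in the changes of the repair genes was not tested.

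Of 37 measured genes of the mitochondrial death route, 12 rose, 16 fell and 9 did not pass, and the median log2 change was -0.09. These are 32.4% higher and 43.2% lower, beside 34.5% and 34.1% of all tested genes. The members that fell do not share a side. The gene diabloa, which encodes an activator of caspases released from mitochondria, fell from 85.7 to 31.2 CPM (log2 -1.46 ± 0.06 SE, adjusted p = 5.39e-10 in edgeR), and BOK (ENSDARG00000008807), a pore former related to Bax, by log2 -1.57 ± 0.11 SE. The survival genes BCL2 (log2 -0.81 ± 0.04 SE) and mcl1a (-0.61 ± 0.04 SE), whose products hold Bax in check, fell as well. The other BOK entry (ENSDARG00000052129) rose, at 12.7 against 9.88 CPM (log2 0.37 ± 0.06 SE). It was the more abundant, since the BOK entry that fell stood at 1.3 against 3.85 CPM. The relatives diablob (log2 -0.10 ± 0.05 SE) and bcl2a (-0.15 ± 0.06 SE) did not pass, and mcl1b fell (-0.18 ± 0.03 SE). Higher were cycsb, a cytochrome c gene (log2 0.73 ± 0.03 SE), and PARP1, a DNA break sensor cut by caspases (0.73 ± 0.03 SE). Of 16 tested genes of the death receptor route 6 rose, 3 fell and 7 did not pass, and the median log2 change was 0.08, and at an adjusted p under 0.01 the number that rose was 3. That is 37.5% higher and 18.8% lower at the main threshold, beside 34.5% and 34.1% of all tested genes. TNFSF10, a death ligand gene, rose by log2 0.44 ± 0.04 SE, tnfrsf1b by 0.18 ± 0.05 and cflara, an inhibitor of caspase 8, by 0.18 ± 0.05. The rise of tnfb, log2 0.77 ± 0.19 SE, was at a low level (0.946 against 0.557 CPM). Lower were tnfsf10l (log2 -0.22 ± 0.03 SE) and TRAF2 (ENSDARG00000078378, log2 -0.48 ± 0.10 SE). TRAF2 has 2 entries, of which the other is not reported here. The ligand gene faslg, at 0.0769 against 0.151 CPM, was too rare to be tested.

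The counts of called markers below stand beside 34.5% of all tested genes called higher and 34.1% lower. Of 16 markers of dividing cells 15 rose and 0 fell (median log2 0.58), and their summed level was 1130 to 1170 CPM in mutants and 791 to 813 in siblings, with no marker at 0. Epidermal markers rose in 3 of 5, with a sum of 18700 to 19000 against 15900 to 16500 CPM. Leukocyte markers fell in 5 of 7 tested and rose in 1, with a sum of 56.8 to 62.7 against 70.5 to 77.1 CPM. Neuron markers fell in 6 of 7 (1320 to 1380 against 1760 to 1820 CPM), liver markers in 5 of 5 (2090 to 2240 against 3450 to 3650 CPM) and gut markers in 7 of 8 (940.0 to 1040 against 2170 to 2230 CPM). Exocrine pancreas markers fell in 2 of 2 (262 to 359 against 2590 to 2950 CPM), photoreceptor markers in 4 of 4 (895 to 940.0 against 2700 to 2950 CPM) and lens markers in 5 of 5. Muscle markers, 2 higher and 1 lower of 5, had sums that overlapped (19700 to 20300 against 19800 to 20700 CPM). Blood markers, 1 higher and 3 lower of 4, also had overlapping sums (374 to 434 against 373 to 415 CPM). The part of these tissue differences in the changes of the 9 genes and of the lists was not tested.

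**Figure D5:**
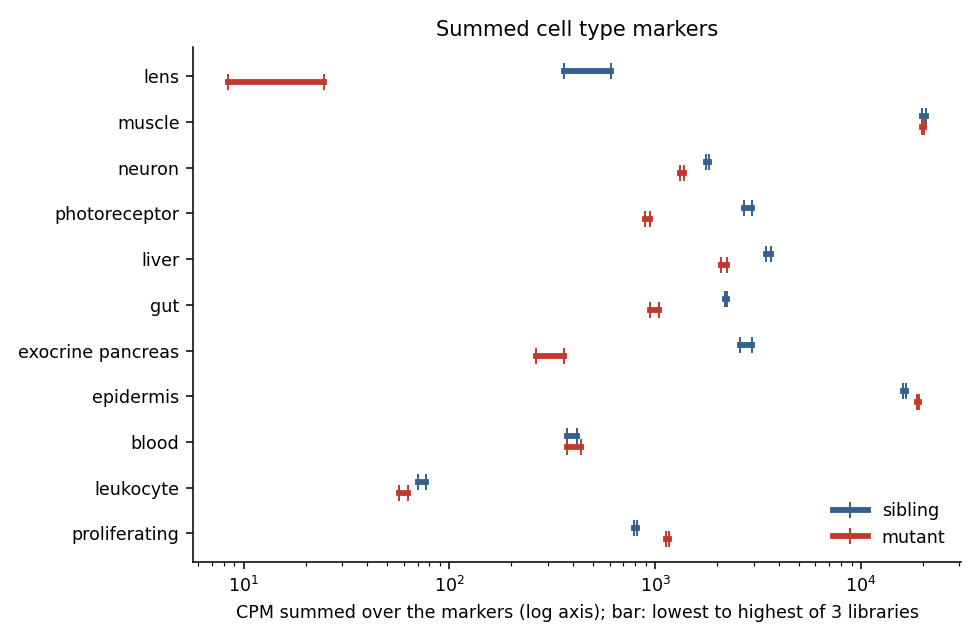
CPM summed over the markers of each cell type (log axis), as the range of 3 libraries, siblings in blue and mutants in red. Lens, photoreceptor, liver, gut and pancreas sums are lower in mutants, proliferating and epidermal sums are higher, and muscle and blood sums overlap.

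To place the pattern among all genes, 16037 genes (mean over all libraries 5 CPM or more) were ranked by the root mean square difference of their centred log2 CPM from that of mdm2 and of cdkn1a over the 6 libraries. The genes nearest to mdm2 were mus81 (0.0312), which encodes a DNA junction nuclease subunit, aifm4 (0.0341) and aldh3b1 (0.0343), an aldehyde dehydrogenase gene. Nearest to cdkn1a were ECSIT (0.0401), GPN1 (0.0407) and NOP58 (0.0413), a core protein gene of small nucleolar particles. Among the members above that level, the ranks from cdkn1a were 51 for phlda3, 61 for ccng1, 544 for mdm2, 1804 for baxa, 2371 for casp8, 11254 for bbc3 and 14273 for sesn1. From mdm2 they were 903 for ccng1, 1319 for baxa, 1856 for casp8, 1927 for cdkn1a, 2854 for phlda3, 11211 for bbc3 and 14254 for sesn1, so many genes that are not members lay nearer to mdm2 than any member did. The difference depends mostly on how far the log2 changes of the compared genes lie apart, so the ranks largely restate the changes given above. Shared control of these genes was not tested.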

How the data were processed

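For each library the authors deposited a table of raw counts, read pairs per gene, without normalization. Per the file headers, these were made with featureCounts 1.6.3 over exons of Ensembl release 115 gene models on GRCz11, paired and strand-specific (setting 2), with no option that counts reads of several alignments. Reads of near-identical copies can therefore be lost. Per the submitters' processing notes, Trimmomatic 0.38 and STAR 2.7.11 were also used. Introns were not counted, so splicing of these genes was not measured here.

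Counts were fitted with edgeR 4.0.16 (R 4.3.3): filterByExpr, TMM scaling, the quasi-likelihood F-test, two-sided, in a model of genotype alone, and Benjamini-Hochberg adjustment over 24248 genes at 0.05. CPM values were computed with the TMM factors. Each ± after a log2 change is an SE from the edgeR fit, marked or not, and every other ± is an SD over n = 3 libraries. In sentences with no adjusted p, "rose" and "fell" refer to this test. On simulated counts over 24248 genes, the mutant and sibling comparison recovered 64% of the genes that had been given a 1.25-fold change, 90% for 1.5-fold and 92% for 2-fold, with 3.4% false calls. Only 50 genes were changed at each of these sizes, while 68.6% of tested genes were called in the data. These rates therefore need not hold for the data.

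Symbols came from a table of IDs and symbols. List entries matching no symbol also lost a final a or b or were matched by a RefSeq synonym (GRCz12tu, names only), and entries with more than 3 IDs were left out. The members and lists were chosen with earlier results of these data known, so the lists are described and not tested. Named are all 9 members, their relatives, and from each list the 4 called genes of smallest adjusted p in the commoner direction and 2 in the other. Further entries or relatives of CREBBP, EP300, GADD45A, BOK, BCL2, diabloa and mcl1a were added after their values were seen. Also named outside this rule are pmaip1, dram1 and faslg. Alternatives were other scalings and filters, DESeq2 1.42.0, limma-voom (limma 3.58.1), the replicate number as a block, a threshold of 0.01 and each library left out. Libraries of the same group differed by more than counting noise (chi-square per degree of freedom 6.33 to 9.02), so none is a copy. The gene of p53 itself and some genes that the naming rule selects are not reported here. Figures were drawn with matplotlib 3.10.9.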

Additional observations from a re-analysis of the deposited data

How the results depend on the processing

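In all alternatives run, the 9 genes kept their direction. The 6 that rose were called in each alternative except the test against a 1.5-fold change, which called 4 of them and 0 of the 2 that fell. Leaving out each library in turn gave 6 higher and 2 lower each time, with log2 changes of 0.71 to 0.78 for mdm2, 1.05 to 1.11 for cdkn1a, 0.93 to 0.98 for ccng1, 1.14 to 1.21 for phlda3, 0.46 to 0.50 for baxa, 0.38 to 0.50 for casp8, -0.57 to -0.51 for sesn1, -0.25 to -0.13 for bbc3 and -0.24 to -0.09 for fas. With library size only, 1 member was lower, since bbc3 was no longer called. That scaling moved the median of all genes to 0.080. Among genes that control p53, the number lower was 4 with upper quartile scaling, 4 with library size only, 4 at an adjusted p under 0.01 and 4 to 7 with a library left out. At an adjusted p under 0.01, a stricter cut on the same fit, 3 death receptor genes were higher and 3 relatives lower. Why counts moved with the scaling or with a library left out was not tested. Over all genes, calls numbered 9280 higher and 7389 lower with upper quartile scaling, 9986 and 6808 with library size only, 7593 and 7796 in DESeq2, and 8402 and 8294 with edgeR's robust estimate of the spread, added after seeing the data. For libraries of the same replicate number, deviations from the group means correlated at 0.12, -0.11 and -0.09 (numbers 1, 2 and 3) across 16037 genes. Not every library correlated best with its own number. These correlations rest on 3 libraries per group, so they cannot show whether replicate numbers pair the libraries. With the replicate block 8220 genes were higher and 8120 lower, and the members stood at 6 and 2. The depth limits fas most, with as few as 181 counts in a library.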
